A study of Mus musculus with 17 samples.

Results

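The regions described here were intronic stretches of kidney chromatin, away from promoters, at which every one of 17 mouse kidney libraries had a summit of accessibility. ATAC-seq uses a transposase to cut and tag DNA where it is not wrapped tightly in nucleosomes, and sequences the fragments, and a summit is the position where the peak caller placed the maximum of a peak. The 29702 summits with the highest scores were taken from every library, which was all of the shortest list, and windows of 250 bp to each side were merged into 116556 regions. Of these, 7865 held a summit of all 17 libraries. The 708 regions studied had their midpoint more than 1 kb from any annotated transcription start, inside the body of a protein-coding gene and in none of its exons. Their edges can reach closer to a start or into an exon, and the distances and introns given below also refer to midpoints. They were selected with the scores, because a region had to stay within the list of every library, so their presence in all 17 is a description and not a result. Intronic distal regions seen in any number of libraries numbered 35892, of which 20556 came from 1 library and 14628 from 2 to 16.

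The Ctrl group (n = 5) held wild-type male C57BL/6 mice given saline, and the Case group (n = 6) held male db/db mice (BKS.Cg-Dock7m +/+ Leprdb/J, which carry a leptin receptor mutation and develop obesity and type 2 diabetes) given saline. In the Dapa group (n = 6), male mice of this same db/db strain received by gavage dapagliflozin, which blocks glucose reabsorption through SGLT2 in the kidney. The dose was 1 mg/kg/day, and treatment began when the mice were 8 weeks old and lasted 6 weeks. Dapa mice are numbered 7 to 12 as in their labels. Each library was made from 20000 kidney cells, so all cell types of the organ contributed, and a smaller share of a cell type cannot be told apart from less accessibility per cell. Ctrl differed from both db/db groups in strain, genotype and diabetes at the same time, and these cannot be told apart, and no batch is named in the labels.

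Distal accessible regions within introns often hold enhancers, which bind transcription factors and act on the promoter of the host gene or of another gene. In the kidney, most cells are tubule epithelium, and factors such as HNF1, HNF4 and PAX8 are known to bind enhancers of the genes for tubular transport. Introns also contain tandem repeats and copies of transposable elements and other duplicated sequence, and a short read from such a sequence can align to more than one place. How reads matching several places were handled is not given in the sources used here.

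Summits were ranked within each library by the score of the caller. A rank percentile of 100 stands for the highest-scoring summit of a library and 50 for the middle of its list. Scores were coarse, with 2700 to 4934 distinct values per list, and the largest group of tied summits held 7.65% to 12.7% of a list. Sequencing depth is unknown, so levels are given as ranks only. Where a library had several summits in a region, the highest was used.

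The 708 members came from 614 host genes. A total of 544 genes held 1 member, 58 held 2 and 12 held 3 or more, and 22 members lay in 2 overlapping genes. The first intron of the host gene held 246 members (34.7%), the second intron 132 (18.6%) and the last intron 60, while 47 members lay outside the introns of the principal transcript. The median distance to the transcription start of the host gene was 11796 bp (interquartile range 4655 to 28087), and 48 members lay over 100 kb from it. Most members were compact: the median width was 700 bp, the summits of the 17 libraries lay a median of 26 bp from their common centre, and 568 members (80.2%) had exactly 1 summit in every library. Under the RefSeq annotation of the same assembly, 46 members (6.50%) lay within 1 kb of a transcription start and would not count as distal.

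Part of the members lay on repeated or copied DNA. In a window of 100 bp to each side of the centre of the summits, 118 members (16.7%) held telomeric hexamers, a satellite, ribosomal DNA, a mitochondrial copy, a tandem repeat or another copy with at least 95% identity elsewhere in the genome. The same was found for 26.0% of the 778 intergenic distal regions and 1.77% of the 5714 protein-coding promoters that also had a summit in all 17 libraries. Among the members, 48 lay on tandem repeats with a repeat unit of 4 to 69 bases (median 33), 21 on runs of 10 to 28 telomeric hexamers, 8 on satellite, 4 on ribosomal DNA and 1 on a mitochondrial copy, and 36 had other copies. More diverged copies were not counted, so the remaining 590 members are those with no repeat or copy by these criteria and are not necessarily unique in sequence.

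The sequences of 7 members that passed the threshold in a comparison of groups are shown first, because 6 of them are tandem repeats by these criteria and the other one nearly so. They are 151 bases centred on the summits, 5′ to 3′ on the + strand of GRCm38 (mm10). Capitals mark the first repeat unit of the window. Itgad encodes the integrin alpha D chain of leukocytes (chr7:128187716-128187866, 56-base unit), Snx29 a sorting nexin (chr16:11423707-11423857, 57-base unit), Oxgr1 the receptor for 2-oxoglutarate (chr14:120032349-120032499, 31-base unit) and Tusc3 a subunit of the oligosaccharyltransferase complex (chr8:39155427-39155577, 24-base unit). Rps6kc1 encodes a protein related to ribosomal S6 kinases (chr1:190902744-190902894, 28-base unit), and Gm3005 is a predicted gene (chr14:3545847-3545997, 45-base unit). Dock2 encodes an activator of Rac in leukocytes (chr11:34681851-34682001). Its bases matched those 48 positions further on in 75.8% of comparisons, below the minimum of 80% required here for a tandem repeat.
Itgad: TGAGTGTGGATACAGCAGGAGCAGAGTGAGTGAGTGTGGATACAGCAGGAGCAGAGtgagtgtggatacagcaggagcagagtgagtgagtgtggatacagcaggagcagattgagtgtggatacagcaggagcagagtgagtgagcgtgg
Gm3005: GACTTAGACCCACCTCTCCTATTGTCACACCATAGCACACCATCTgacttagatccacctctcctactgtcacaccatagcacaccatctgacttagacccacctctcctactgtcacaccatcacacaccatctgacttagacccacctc
Snx29: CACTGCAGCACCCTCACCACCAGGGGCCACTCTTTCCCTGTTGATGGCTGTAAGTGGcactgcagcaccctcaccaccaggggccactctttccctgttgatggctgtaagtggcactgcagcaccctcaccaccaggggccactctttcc
Oxgr1: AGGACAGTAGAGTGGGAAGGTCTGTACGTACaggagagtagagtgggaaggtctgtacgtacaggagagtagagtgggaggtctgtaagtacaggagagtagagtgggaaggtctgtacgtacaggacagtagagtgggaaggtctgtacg
Rps6kc1: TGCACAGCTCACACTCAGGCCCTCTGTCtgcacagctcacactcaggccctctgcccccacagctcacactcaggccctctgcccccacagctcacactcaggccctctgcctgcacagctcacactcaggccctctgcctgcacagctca
Tusc3: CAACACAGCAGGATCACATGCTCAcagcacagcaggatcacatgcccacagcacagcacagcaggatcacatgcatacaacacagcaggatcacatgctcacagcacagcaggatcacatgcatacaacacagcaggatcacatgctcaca
Dock2: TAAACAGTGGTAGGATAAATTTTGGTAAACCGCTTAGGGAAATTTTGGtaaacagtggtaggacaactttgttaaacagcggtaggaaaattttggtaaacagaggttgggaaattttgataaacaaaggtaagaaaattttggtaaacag

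A further sequence is that of the member with the highest mean rank of the 17 libraries, in Chl1, a neural cell adhesion gene (chr6:103649103-103649253, no capitals, 1 copy elsewhere in the genome). Members with the recognition letters of HNF1, a factor of the tubule epithelium, are shown by those in Hnf4g and Rxra (chr3:3613692-3613842 and chr2:27758593-27758743). Both genes encode nuclear receptors of the kidney list, and the capitals mark the HNF1 match, which lies on the − strand in Hnf4g.
Chl1: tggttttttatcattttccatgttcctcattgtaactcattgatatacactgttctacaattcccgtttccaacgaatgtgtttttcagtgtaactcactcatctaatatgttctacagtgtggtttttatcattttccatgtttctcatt
Hnf4g: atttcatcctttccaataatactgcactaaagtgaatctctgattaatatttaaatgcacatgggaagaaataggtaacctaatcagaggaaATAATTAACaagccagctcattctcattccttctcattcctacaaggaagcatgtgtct
Rxra: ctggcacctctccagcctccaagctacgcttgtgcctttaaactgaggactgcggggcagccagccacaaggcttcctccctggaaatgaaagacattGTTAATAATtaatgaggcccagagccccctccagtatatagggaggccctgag

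The composition of the members lay between that of promoters and that of intronic regions seen in fewer libraries. Median GC content of the window was 54.2% in members, 66.2% in promoters, 53.7% in intergenic distal regions and 50.7% in intronic distal regions seen in 2 to 16 libraries. The median window held 3 CpG dinucleotides in members and 17 in promoters. The letters GTTAATNNT of HNF1, read on both strands, occurred in 9.60% of members, 7.29% of intronic regions seen in 2 to 16 libraries, 5.53% of intergenic distal regions and 0.788% of promoters. Other factors of the kidney list did not share this order. CAAAGTCCA of HNF4 occurred in 2.40%, 2.71%, 2.70% and 0.455% of these sets, and TCAAGGTCA of ESRR in 0.141%, 0.561%, 0.386% and 0.158%. TGANTCA, the site of the AP-1 factors FOS and JUN, occurred in 9.46% of members, 9.90% of intergenic distal regions, 8.86% of intronic regions seen in 2 to 16 libraries and 2.47% of promoters. GGGCGGG, bound by SP and KLF factors, was in 8.19% of members, above the 3.30% of intronic regions seen in fewer libraries and below the 53.7% of promoters. CCGGAAG of the ETS factors followed the same order at promoters (16.6%) but not within introns (0.706% of members and 1.36% of regions seen in fewer libraries). GCCNNNGGC of TFAP2 occurred in 9.75% of members, 11.1% of intergenic distal regions, 7.07% of intronic regions seen in fewer libraries and 21.5% of promoters. ACATTCC of TEAD occurred in 4.24%, 3.86%, 3.93% and 1.33% of the same sets, and the CTCF motif in 1.69%, 2.96%, 4.26% and 0.910%. Matches to several motifs were counted separately and can overlap. These shares describe letters in a window and carry no test.

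**Figure D1:**
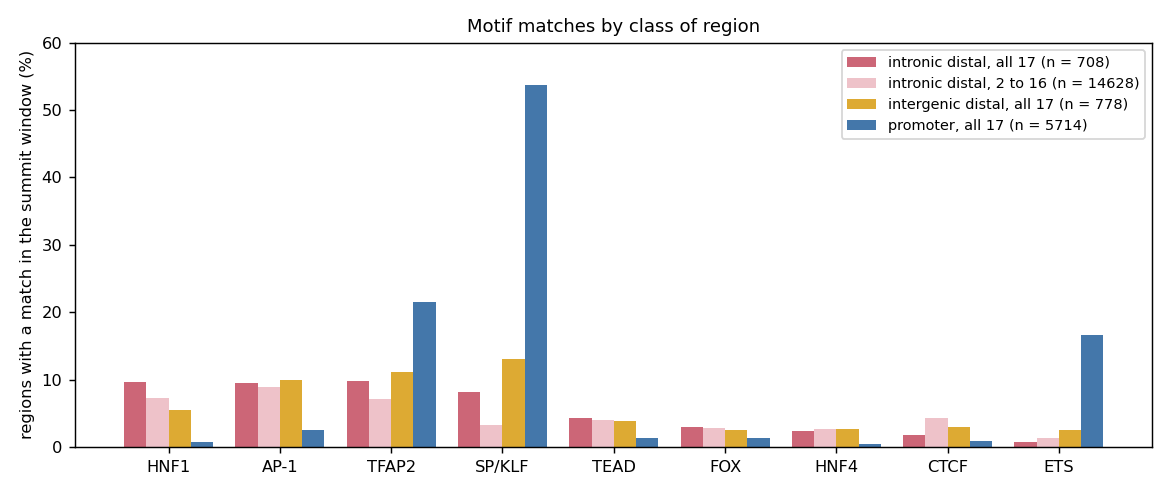
Percentage of regions (vertical axis) whose summit window holds the letters of each motif (horizontal axis), for intronic distal regions found in all 17 libraries (n = 708), intronic distal regions found in 2 to 16 (n = 14628), and intergenic distal regions (n = 778) and promoters (n = 5714) found in all 17. The HNF1 bar is highest for the members (9.60%), while the SP/KLF bar is highest for promoters (53.7%).

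The members ranked below promoters and varied more. Averaged over the 17 libraries, the rank percentile of a member had a median of 74.0 (interquartile range 65.2 to 82.7), against 82.7 for promoters and 77.4 for intergenic distal regions. The standard deviation of a member over the 17 libraries had a median of 14.2 percentile points, against 9.87 for promoters and 13.0 for intergenic distal regions. A mean percentile of at least 90 was reached by 85 members (12.0%), 27.3% of promoters and 24.7% of intergenic distal regions. As a description of the selection, the 638 intronic distal regions found in 16 libraries had a median of 63.4 in the libraries that had them. At the distance limit, the 21 members closest to a transcription start had a median of 73.0, and the 26 intronic regions just short of 1 kb had 69.9.

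Spread fell with level. The median standard deviation was 18.1 percentile points for the 246 members with a mean between 50 and 70, 14.2 for the 221 between 70 and 80, 10.4 for the 133 between 80 and 90, and 2.85 for the 85 above 90. Percentiles cannot exceed 100, so differences and spread both shrink near the top of the list. On a logit scale, which stretches the ends of the range, more members passed the threshold between Case and Ctrl (37 higher and 4 lower in Case, against 10 and 0 on the percentile scale). These counts are of members only, with no share of all regions on the logit scale beside them.

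**Figure D2:**
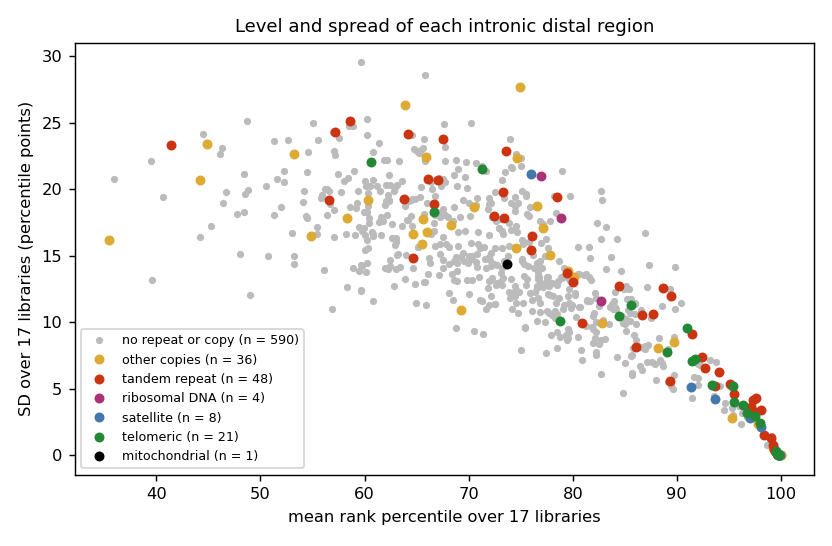
Each point is 1 of the 708 members, with its mean rank percentile over 17 libraries on the horizontal axis and its standard deviation over the same libraries, in percentile points, on the vertical axis, coloured by the sequence at the summit. Telomeric, satellite and tandem-repeat members crowd the lower right, where the 85 members above 90 have a median standard deviation of 2.85.

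Repeated sequence was common at the top. Of the 50 members with the highest mean percentile, 35 lay on repeated or copied sequence, as did 5 of the first 10. The median of the mean percentile was 97.6 over the 8 satellite members, 93.3 over the 21 telomeric members, 87.2 over the 48 tandem-repeat members and 72.8 over the 590 members with no repeat or copy. The 10 members with the highest means, in order, lay in Chl1, Cdk8, Filip1l, 2210408I21Rik, Gphn, Aida, Il31ra, Cldn34d, Gnb1l and Camk1d, with means from 99.99 down to 99.8. Their standard deviations over the 17 libraries were 0.0300 percentile points at most, and Chl1 held the same percentile in every library (SD 0). Cdk8 encodes a kinase of the Mediator complex, and its promoter, also found in all 17 libraries, had a mean percentile of 56.5. At the other extreme, the members in Arsg (a lysosomal sulfatase), Dock2 and Mid1 (a microtubule-bound ubiquitin ligase) had standard deviations of 29.5, 28.6 and 27.7. The member in Arsg ranked at 64.0, 44.1, 47.8, 40.0 and 45.1 in the Ctrl mice, from 3.35 to 96.0 (median 78.1) in Case and from 12.8 to 89.6 (median 80.2) in Dapa, so its groups overlapped throughout.

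Of the 708 members, 305 (43.1%) lay in a gene whose own promoter was among the regions found in all 17 libraries. The promoter ranked above the member in 186 of these (61.0%), with medians of 79.3 for the promoters and 73.2 for the members. For members on repeated or copied sequence, 39 of 118 (33.1%) had such a promoter, against 266 of 590 (45.1%) of the others. Where a gene had several such promoters, the one with the highest mean percentile was used, which favours the promoter in the ranks above.

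A pair of libraries stood apart. The median rank percentile of the members was 76.1 to 77.9 in the 5 Ctrl libraries. It was 82.1, 78.4, 63.2, 79.9, 81.1 and 81.7 in Case 1 to Case 6, and 80.1, 73.3, 81.6, 80.1, 80.9 and 80.9 in Dapa 7 to Dapa 12. Case 3 and Dapa 8 were thus the lowest of their groups, and they were also low in intergenic distal regions (74.9 and 78.6) but the highest of their groups in promoters (85.7 and 87.4). Both also had the most promoters of a leukocyte list with a summit, 9 and 5 of 26 genes, against 1 to 3 in each of the other 15 libraries, and the fewest promoters of a proximal tubule list, 21 and 26 of 39 genes, against 28 to 35. Other lists differed between them. Of 27 thick limb and distal tubule genes Dapa 8 had 13, the most of any library, and Case 3 had 8. Case 3 had the most stromal (6 of 21) and endothelial (4 of 21) promoters, against 4 and 2 in Dapa 8. The part of these marker differences in the results was not tested. Counts of members past the threshold, the directions of the larger sets and each member past the threshold are also given without Case 3 and Dapa 8. Over the 708 members, Spearman correlations between libraries had a median of 0.545 for the 40 pairs within a group and 0.525 for the 96 pairs between groups (0.556 and 0.528 without Case 3 and Dapa 8), as a description of lists that share promoters, repeats and base composition.

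**Figure D3:**
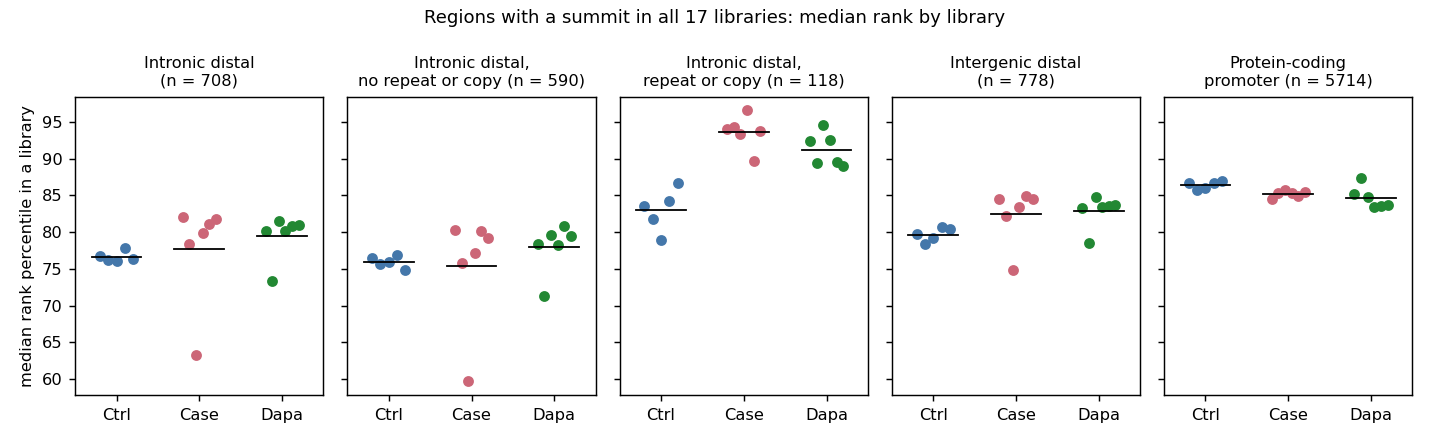
Median rank percentile (vertical axis) of 5 sets of regions found in all 17 libraries, with 1 point per library, a bar at the mean of each group and Ctrl (n = 5), Case (n = 6) and Dapa (n = 6) side by side. The 118 members on repeated or copied sequence separate Ctrl (79.0 to 86.6) from Case (89.6 to 96.6) and Dapa (89.0 to 94.6), while the 590 other members overlap and show the low Case 3 (59.7) and Dapa 8 (71.3).

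The comparison of Case with Ctrl asked whether diabetic kidneys differed from healthy ones at these members. In a limma fit over all 7865 regions found in all 17 libraries, 10 of 708 members (1.41%) ranked higher in Case at an adjusted p under 0.05, against 0.483% of all regions tested. In the same direction passed 22 of 778 intergenic distal regions (2.83%) and 3 of 5714 promoters, so the members' share was not the highest. No member was lower at that threshold in limma, where 0.0254% of all regions were. At an unadjusted p under 0.05, 89 members were higher and 23 lower (15.8% of members), against 470 and 528 of all regions (12.7%). This share was 22.6% of intergenic distal regions and 10.7% of promoters. The median difference was 0.03 percentile points over the members and −1.08 over all regions. Of the 10 members past the threshold, 8 lay on repeated or copied sequence. Without Case 3 and Dapa 8, 6 members passed, all higher in Case, and with 1 library left out the count was 25 without Ctrl 4, 6 without Case 6 and 7 to 15 otherwise. When only Ctrl and Case entered the fit none passed (smallest adjusted p = 0.0659). An exact permutation test per region gave none either (smallest adjusted p = 0.181). Its smallest possible p passes the adjustment only if many of the 7865 regions reach it together.

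The member with the smallest p lay in the 56-base repeats of intron 11 of 30 of Itgad (chr7:128187445-128188703). It ranked at 83.7, 81.2, 80.4, 85.0 and 79.0 in the Ctrl mice, from 92.3 to 98.7 (median 97.3) in Case and from 93.7 to 99.4 (median 98.1) in Dapa. Every db/db mouse lay above every Ctrl mouse. The difference was 14.4 ± 1.60 percentile points (SE, adjusted p = 0.000371) in Case. It passed the threshold with any 1 library left out and without both Case 3 and Dapa 8 (adjusted p = 0.00223). Itgad belongs to a run of leukocyte integrin genes, but its promoter was not among the regions found in all 17 libraries.

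The members in Gm3005, Snx29, Dock2 and Oxgr1 passed the threshold with any 1 library left out as well, and without both Case 3 and Dapa 8 (adjusted p 0.0411 to 0.0459). Without Case 2, Case 3 and Dapa 8, however, Itgad alone of the 10 members passed. In that fit the adjusted p was 0.0675 for Gm3005 and 0.0514 for Snx29. The member in Gm3005 (chr14:3545588-3546277), whose window had at least 49 other matches on chromosome 14, ranked at 65.9, 73.4, 73.4, 72.5 and 84.3 in Ctrl and from 92.3 to 97.5 (median 95.1) in Case. All 6 Case mice were higher than all Ctrl mice, by 21.3 ± 3.53 points (SE, adjusted p = 0.0118). Intron 11 of 20 of Snx29 (chr16:11423312-11424172) ranked at 87.8, 84.2, 81.6, 90.3 and 90.8 in Ctrl and from 93.3 to 98.2 (median 97.2) in Case. This change was smaller, 9.75 ± 1.70 points (SE, adjusted p = 0.0153), again without overlap of the mice. Oxgr1 encodes a receptor that is found in intercalated cells of the collecting duct and responds to a citric acid cycle intermediate. Intron 1 of 3 of this gene (chr14:120032084-120032923) ranked at 68.5, 84.2, 75.1, 82.2 and 87.9 in Ctrl and from 89.1 to 98.4 (median 96.5) in Case, a difference of 15.7 ± 2.79 points (SE, adjusted p = 0.0163) with no overlap.

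The widest separation was in Dock2, a gene of leukocyte migration (intron 22 of 51, chr11:34681589-34682296). The member ranked at 37.4, 4.81, 27.5, 40.0 and 45.1 in Ctrl and from 66.7 to 97.5 (median 90.7) in Case. No Case mouse reached down to a Ctrl mouse, and the difference was 55.9 ± 9.79 points (SE, adjusted p = 0.0153). Case 3, the library with the most leukocyte promoters, ranked at 88.5, inside the range of the other Case mice, and the difference without Case 3 and Dapa 8 was 55.6 points (adjusted p = 0.0427). The part of leukocytes in this difference was not tested. The member missed the threshold without Case 2, Case 3 and Dapa 8 (54.0 points, adjusted p = 0.0714). It also missed with every summit (35.1 points, adjusted p = 0.0622). In Dapa the same member ranked from 32.3 to 94.1 (median 79.6), with Dapa 10 inside the Ctrl range, and its difference from Ctrl of 42.7 ± 9.79 points missed the threshold (adjusted p = 0.0697).

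The other 5 calls depended on single libraries. Without both Case 3 and Dapa 8 all 5 missed the threshold, with differences of 20.9 points for Rps6kc1, 12.0 for Nemp1, 34.1 for A530032D15Rik, 27.9 for Intu and 9.34 for Tusc3 and adjusted p from 0.0542 to 0.0788. In Rps6kc1 (intron 2 of 14, chr1:190902532-190903125), Ctrl ranked at 76.7, 64.9, 79.0, 73.8 and 77.5 and Case from 83.9 to 99.4 (median 98.1), with no overlap. Its difference of 21.6 ± 3.96 points (SE, adjusted p = 0.0203) missed the threshold without Case 1 (21.3 points, adjusted p = 0.0507) or Case 6 (adjusted p = 0.0571). Nemp1 encodes a protein of the inner nuclear membrane. Its member (intron 1 of 10, chr10:127674614-127675206) had no repeat or copy, ranked at 81.7, 82.3, 78.3, 93.2 and 82.4 in Ctrl and from 91.7 to 99.0 (median 95.7) in Case, and overlapped only through Ctrl 4. The difference was 12.1 ± 2.25 points (SE, adjusted p = 0.0204), and it missed the threshold without Ctrl 1 (11.6 points), Ctrl 3 (10.8 points) or Case 6 (11.4 points), at adjusted p from 0.0533 to 0.0571.

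A530032D15Rik and C130026I21Rik are overlapping genes on chromosome 1 that share a member with 1 other copy on the same chromosome (chr1:85089723-85091231). It ranked at 41.0, 48.4, 24.0, 58.2 and 63.9 in Ctrl and from 77.1 to 86.2 (median 80.4) in Case, without overlap. The difference of 33.7 ± 6.59 points (SE, adjusted p = 0.0274) missed the threshold without Ctrl 1, Ctrl 2, Ctrl 3, Case 1, Case 2, Case 4 or Case 6, where it ran from 27.9 points (without Ctrl 3) to 34.1 (without Ctrl 2) at adjusted p from 0.0540 to 0.0810. Intu encodes an effector of planar cell polarity that is needed for cilia. Its member in intron 1 of 15 (chr3:40549930-40550781) has 17 other copies on chromosome 3 and ranked at 71.0, 44.1, 47.8, 66.0 and 65.5 in Ctrl and from 74.4 to 92.9 (median 88.5) in Case. The difference of 27.9 ± 5.77 points (SE, adjusted p = 0.0377) missed it when any one of Ctrl 2, Ctrl 3, Case 1 to Case 5, Dapa 7 or Dapa 9 was left out, with adjusted p from 0.0524 to 0.102. Tusc3 (intron 8 of 9, chr8:39155190-39155933) ranked at 85.1, 87.7, 82.1, 98.2 and 91.3 in Ctrl and from 96.9 to 99.0 (median 98.2) in Case. Its groups overlapped through Ctrl 4, and its difference of 9.28 ± 2.01 points (SE, adjusted p = 0.0440) remained past the threshold only without Ctrl 4 or Ctrl 5 (otherwise adjusted p 0.0531 to 0.125).

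No member passed in the lower direction in the reported fit, and the first 3 by p are given as values. Elsewhere, 4 passed on the logit scale, 1 when ranked among the 7865 regions only, and 1 without Case 1, Case 5 or Dapa 12. Ints6l, a gene related to a subunit of the Integrator complex, ranked at 95.4, 97.4, 97.4, 91.9 and 92.9 in Ctrl and from 30.9 to 86.7 (median 52.8) in Case (intron 2 of 16, chrX:56455582-56456315). All 6 Case mice lay below all Ctrl mice, with a difference of −38.6 ± 9.10 points (SE, adjusted p = 0.0654). Slc1a2 encodes a glutamate transporter. Its member (intron 5 of 10, chr2:102745108-102746023) ranked at 83.7, 91.5, 91.3, 91.4 and 85.5 in Ctrl, from 30.9 to 85.0 (median 57.5) in Case and from 70.5 to 94.1 (median 88.5) in Dapa. The Case and Ctrl mice overlapped through Case 5, and the difference was −32.9 ± 7.84 points (SE, adjusted p = 0.0668). The member in Clec11a, a secreted growth factor of bone, differed by −5.35 ± 1.69 points (SE, adjusted p = 0.170).

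**Figure D4:**
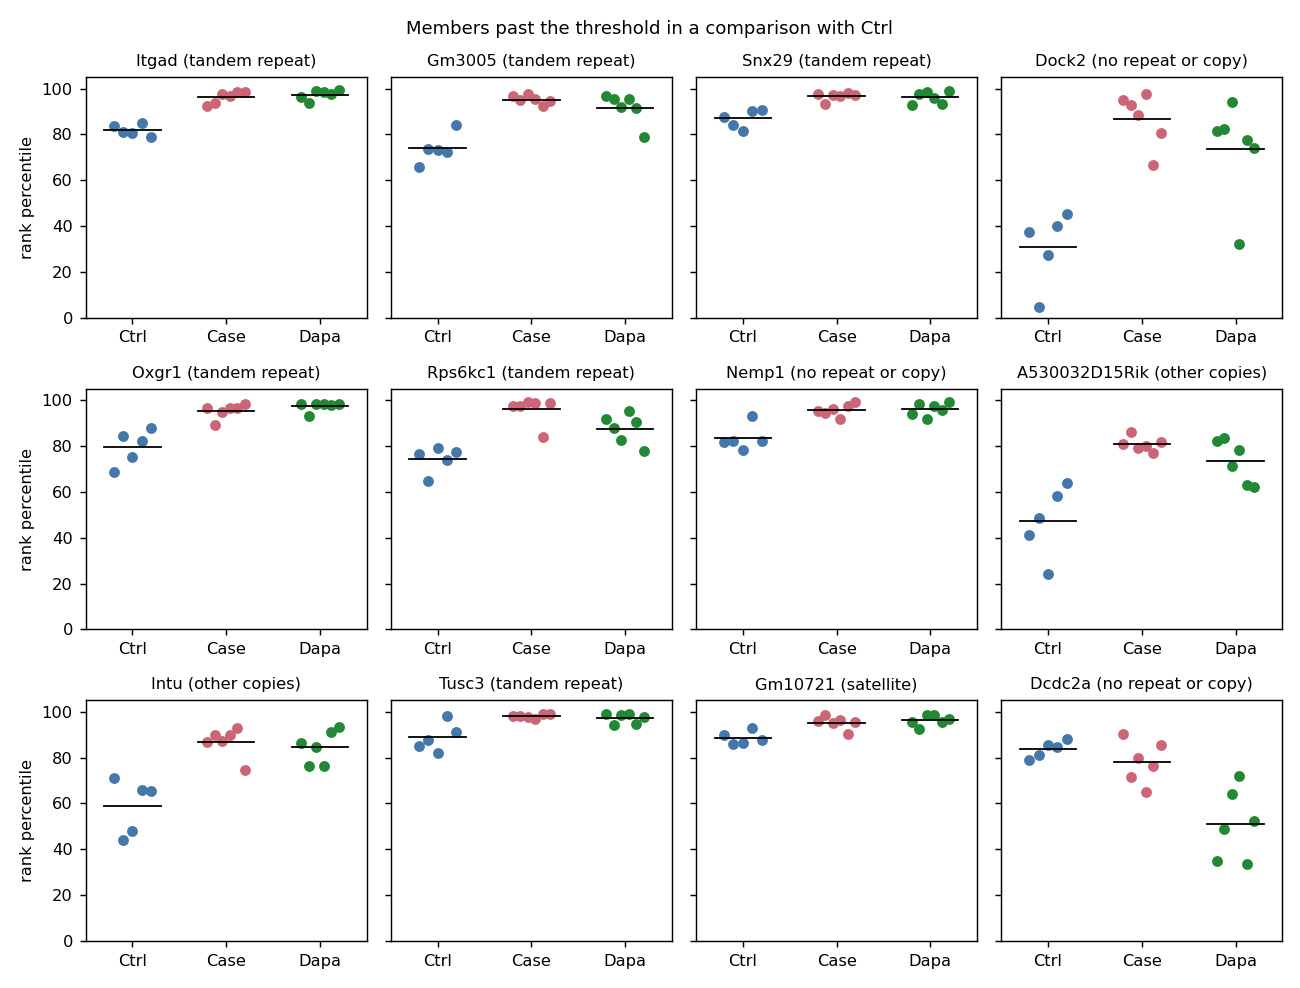
Rank percentile (vertical axis, 0 to 100) of each member past the threshold in a comparison with Ctrl, in each Ctrl (n = 5), Case (n = 6) and Dapa (n = 6) library, with a bar at the group mean. In 11 of the 12 panels the Ctrl mean is the lowest of the 3, and in Dcdc2a the Dapa mean (50.9) lies below those of Ctrl (83.7) and Case (78.1).

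The comparison of Dapa with Case asked whether treatment changed diabetic kidneys at these members. In limma no member was higher (0 of all regions, 0%) and none lower (0%) at an adjusted p under 0.05, and the smallest adjusted p was 0.808. At an unadjusted p under 0.05, 26 members were higher in Dapa and 13 lower, which makes 5.51% of members against 5.90% of all regions. An exact permutation test per region also gave none. The median difference was 0.61 percentile points over the members, and −0.01 without Case 3 and Dapa 8.

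The members with the smallest p in this comparison are given as values that missed the threshold. On the side of higher Dapa ranks they were Slc1a2 (28.5 ± 7.47 points), Aldh1l1, an enzyme of folate metabolism (16.2 ± 5.31), and Mlxipl, which encodes the glucose-responsive factor ChREBP (18.6 ± 6.31), all with SE and an adjusted p of 0.808. A second member in Aldh1l1 differed by 2.67 points. In Mlxipl (intron 1 of 16, chr5:135107655-135108797) the Ctrl mice ranked at 62.6, 46.8, 58.8, 59.3 and 49.4, the Case mice from 39.0 to 63.7 (median 54.4) and the Dapa mice from 56.5 to 81.4 (median 72.3), so that the groups overlapped. On the other side were Dcdc2a (−27.2 ± 6.52 points), Mid1 (−36.3 ± 12.5) and Gm47283 (−27.1 ± 10.3). A second member in Gm47283 differed by −15.8 points. In Mid1 (chrX:170005032-170005695), which has 7 other copies, Dapa 11 and Dapa 12 ranked at 7.68 and 7.33, far below the other 4 Dapa mice, which ranked from 62.1 to 90.6.

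Dapa was compared with Ctrl as well, and both comparisons with Ctrl share the same Ctrl mice. Here 6 of 708 members were higher in Dapa, against 0.369% of all regions tested, and 1 was lower, against 0.0636%. Together these 7 made 0.989% of members, against 0.432% of all regions and 1.93% of intergenic distal regions found in all 17. Of the 7 members, 5 lay on repeated or copied sequence. The median difference was 1.29 percentile points over the members and −0.96 over all regions. Without Case 3 and Dapa 8, 5 members passed, and with only Dapa and Ctrl in the fit 1 did (Itgad, adjusted p = 0.0197). The count was 21 without Ctrl 4, 1 without Ctrl 3 or Dapa 9, 2 without Ctrl 1, Ctrl 2 or Case 1, 3 without Dapa 7 or Dapa 12, and 4 without Case 4, Case 6, Dapa 10 or Dapa 11.

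Itgad differed by 15.5 ± 1.60 points (SE, adjusted p = 0.000131), with no overlap of the mice, and passed with any 1 library left out. Without both Case 3 and Dapa 8 it differed by 16.2 points (adjusted p = 0.000359). Oxgr1 ranked from 93.1 to 98.3 (median 98.2) in Dapa, 17.7 ± 2.79 points above Ctrl (SE, adjusted p = 0.0227) and without overlap. It missed the threshold without Ctrl 3 (16.6 points, adjusted p = 0.0535) or Dapa 9 (17.6 points, adjusted p = 0.0621), and passed without both Case 3 and Dapa 8 (18.6 points, adjusted p = 0.0233).

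The other 4 members higher in Dapa missed the threshold in more of the fits with 1 library left out, although their differences remained between 11.1 and 14.8 points for Nemp1, 7.90 and 10.2 for Snx29, 15.8 and 20.4 for Gm3005, and 7.09 and 8.92 for Gm10721. Without both Case 3 and Dapa 8, Nemp1 (12.0 points, adjusted p = 0.0480) and Gm10721 (8.54 points, adjusted p = 0.0425) passed, while Snx29 (8.91 points, adjusted p = 0.0524) and Gm3005 (17.1 points, adjusted p = 0.0790) did not. Nemp1 differed by 12.4 ± 2.25 points (SE, adjusted p = 0.0349) and missed the threshold without Ctrl 1, Ctrl 2, Ctrl 3, Case 1, Dapa 7, Dapa 9, Dapa 10 or Dapa 12 (adjusted p 0.0531 to 0.0842). Snx29 differed by 9.23 ± 1.70 points (SE, adjusted p = 0.0349) and missed it without the same libraries other than Dapa 7 (adjusted p 0.0532 to 0.0842). Gm3005 ranked from 78.9 to 96.9 (median 93.7) in Dapa, with Dapa 12 inside the Ctrl range, and its 17.8 ± 3.53 points (SE, adjusted p = 0.0376) remained past the threshold only without Ctrl 4, Ctrl 5, Case 2 or Dapa 12 (otherwise adjusted p 0.0504 to 0.0878). Gm10721 is a predicted gene near the start of chromosome 9 (chr9:3013894-3014466). Its member lies inside the stretch by which satellite was defined here, so its satellite label follows from its position. Its member ranked at 89.7, 85.7, 86.3, 93.0 and 87.8 in Ctrl and from 92.6 to 98.6 (median 96.3) in Dapa, overlapping through Ctrl 4, and its 7.79 ± 1.61 points (SE, adjusted p = 0.0376) held only without Ctrl 4, Case 2, Case 5 or Dapa 8 (otherwise adjusted p 0.0514 to 0.113).

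The 1 member lower in Dapa lay in Dcdc2a, a gene of the primary cilium (intron 6 of 9, chr13:25115255-25116426), and had no repeat or copy. It ranked at 79.1, 81.3, 85.4, 84.7 and 87.9 in Ctrl, from 65.2 to 90.3 (median 78.1) in Case and from 33.4 to 71.9 (median 50.5) in Dapa. All Dapa mice lay below all Ctrl mice, while Case overlapped both. The difference from Ctrl was −32.8 ± 6.84 points (SE, adjusted p = 0.0379), and it remained past the threshold only without Ctrl 4 or Dapa 10 (otherwise adjusted p 0.0508 to 0.113). Without both Case 3 and Dapa 8 it was −32.4 points (adjusted p = 0.0758). Further members on this side, in Itpr1, a calcium channel of the endoplasmic reticulum (−29.6 ± 7.64 points, adjusted p = 0.109), and in Retreg1, a receptor for turnover of the same organelle (−32.1 ± 11.2 points, adjusted p = 0.224), missed the threshold. A second member in Itpr1 differed by 1.94 points and a second in Retreg1 by −4.36.

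Direction differed with the sequence under the summit. Of the 118 members on repeated or copied sequence, 101 (85.6%) had a higher mean rank in Case than in Ctrl and 97 (82.2%) in Dapa than in Ctrl, with median differences of 7.56 and 5.31 percentile points. The median over these 118 members was 83.6, 81.8, 79.0, 84.2 and 86.6 in the Ctrl libraries, from 89.6 to 96.6 in Case and from 89.0 to 94.6 in Dapa, so no db/db library overlapped the Ctrl range. Case 3 and Dapa 8 stood at 93.3 and 89.5, among the others. Without these 2 libraries 100 and 95 members were higher, with the rank on a logit scale 103 and 100, and ranked among the 7865 regions only 104 and 101. All 21 telomeric, 43 of 48 tandem-repeat, 7 of 8 satellite and 26 of 36 members with other copies were higher in Case than in Ctrl. Dapa exceeded Case in 34 of the 118 members, with a median difference of −0.52 points.

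Over all 527 regions on repeated or copied sequence found in all 17 libraries, the 118 members included, 71.3% were higher in Case than in Ctrl, against 39.5% of the 7338 others, the 590 members included. These values describe the regions and carry no test over them. Many of these members share a sequence, so they are not independent of each other.

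The direction of the 590 members with no repeat or copy depended on the setting between Case and Ctrl. From Ctrl to Case, 257 of 590 were higher, with a median of −1.46 percentile points. The direction turned without Case 3 and Dapa 8 (337 higher, median 1.58) and when ranked among the 7865 regions only (358 higher, median 2.90), while the median over all 7865 regions moved from −1.08 to −0.65 and 0.06 in the same settings. Dapa was above Ctrl in 314 of the 590 (median 0.38), in 351 without Case 3 and Dapa 8 (median 2.11), in 390 when ranked among the 7865 regions only (median 4.60) and in 337 on the logit scale, with library medians of 74.8 to 76.9 in Ctrl and 71.3 to 80.9 in Dapa. Dapa was above Case in 357 of them (median 1.60), and in 311 without Case 3 and Dapa 8 (median 0.25), 354 when ranked among the 7865 regions only and 361 on the logit scale. Of these members, Dock2 and Nemp1 passed the threshold against Ctrl in Case, and Nemp1 and Dcdc2a in Dapa. When only regions with no repeat or copy were fitted, none of the 590 passed in either comparison, while the differences were as before: Dock2 55.9 points (adjusted p = 0.0929) and Nemp1 12.1 (adjusted p = 0.0959) in Case, and Nemp1 12.4 (adjusted p = 0.104) and Dcdc2a −32.8 (adjusted p = 0.139) in Dapa.

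**Figure D5:**
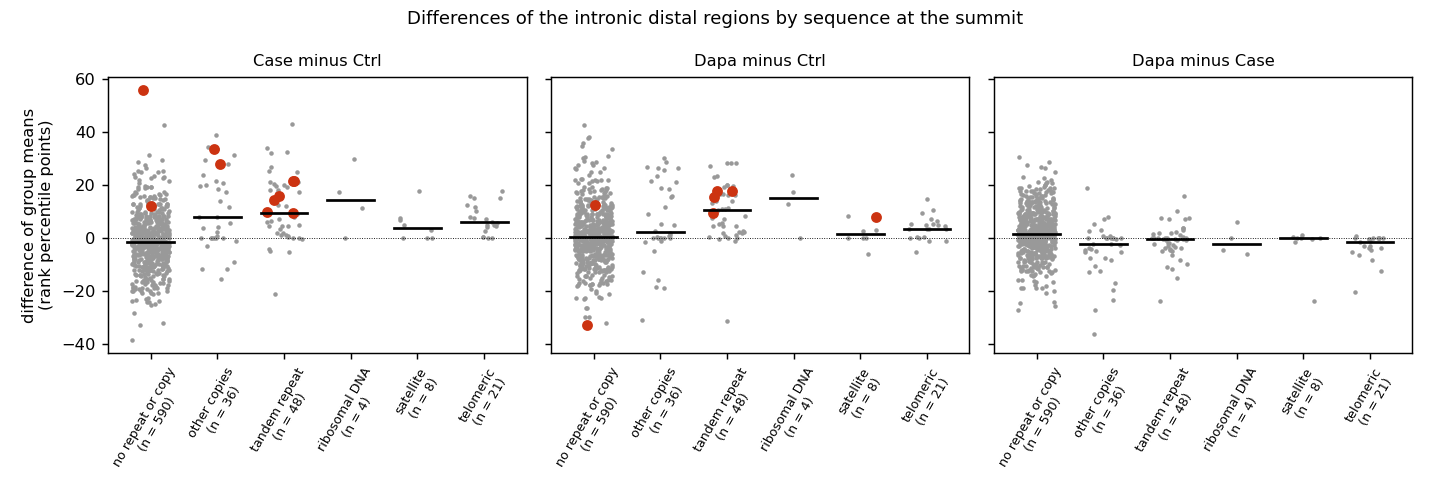
Difference of group means in rank percentile points (vertical axis) for each member, grouped by the sequence at its summit, in the 3 comparisons. Black bars are medians, red points passed an adjusted p under 0.05, and the 1 mitochondrial copy is not drawn. In the comparison of Case with Ctrl the medians of tandem repeats (9.51) and telomeric members (5.85) lie above 0 and that of members with no repeat or copy (−1.46) below it.

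The 21 telomeric members had library medians of 86.5 to 96.6 in Ctrl, 93.9 to 99.1 in Case and 91.9 to 98.8 in Dapa, and these ranges overlapped through Ctrl 4. The 4 with 23 or more hexamers, in Dop1b, Lama1, Ppp1r9a and Flt1, had means of 99.5 or above and differed by 0.36 points at most between Case and Ctrl, close to the upper limit of the scale. Differences of lower-ranked telomeric members were larger, such as those in Nalcn, a sodium leak channel (10 hexamers, mean 71.2, 17.9 points), and Hsd11b1, which reactivates glucocorticoids (18 hexamers, mean 91.7, 12.5 points), and none passed the threshold.

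The gene with the most members was C130026I21Rik, with 11 over chr1:84993752-85180146, of which 10 had other copies. Their median difference was 23.6 percentile points between Case and Ctrl and 21.9 between Dapa and Ctrl, and 10 of 11 were higher in each, also without Case 3 and Dapa 8. The member shared with A530032D15Rik was the 1 past the threshold. Copied regions of 1 gene are not independent of each other. A member in overlapping genes counts for each of them here. Fgfr2, a receptor of fibroblast growth factors, had 6 members over chr7:130533218-132724444, of which 5 lay in a second gene as well, such as Tacc2 or Nsmce4a. Gm20388 also had 6, with 3 shared. Tns1, which links actin to focal adhesions, had 5 members, of which 1 was higher in Case than in Ctrl (median −10.0 points). None of the members in Fgfr2, Gm20388 and Tns1 passed the threshold.

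Gene lists of kidney cell types and pathways were searched for members. Of 271 genes, 27 hosted 29 members, and none of the 29 passed the threshold in any comparison. Renal transcription factor genes were hosts most often, 8 of 36, with 9 members. The proximal tubule list had 3 of 39 genes, the thick limb and distal tubule list 1 of 27, the podocyte list 2 of 16, the endothelial list 2 of 21, the leukocyte list 1 of 26, and the collecting duct and stromal lists none of 21 each. The list of gluconeogenesis, insulin and circadian genes had 7 of 40 with 8 members, and the injury and fibrosis list 3 of 28.

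Members in transcription factor genes ranked in the middle of the range, with means from 51.5 to 77.6 (median 65.2). Hnf4a, a nuclear receptor that drives proximal tubule genes, ranked at 42.0, 41.5, 55.6, 77.9 and 80.3 in Ctrl, from 39.0 to 92.5 (median 82.9) in Case and from 72.5 to 86.3 (median 79.3) in Dapa (chr2:163534870-163535606). The groups overlapped widely, and Case 3 was the lowest Case library. This member differed by 17.5 points between Case and Ctrl and 20.7 between Dapa and Ctrl, and a second member in Hnf4a by −5.31 and 1.61. Pax8, a factor of nephron development (intron 2 of 11, chr2:24468951-24469633), ranked at 74.1, 56.2, 81.0, 68.9 and 77.5 in Ctrl, from 30.9 to 70.7 (median 67.4) in Case and from 52.5 to 94.6 (median 69.7) in Dapa, again with overlap and with a mean close to that of its own promoter (68.4 and 69.4). Hnf4g, shown above with its HNF1 match, ranked at 66.6, 85.7, 85.2, 73.8 and 74.8 in Ctrl, from 33.2 to 73.5 (median 54.5) in Case and from 39.7 to 80.9 (median 59.1) in Dapa. Its difference between Case and Ctrl was −22.6 ± 8.32 points (SE, adjusted p = 0.253). Rxra, the other gene shown, had a difference of 6.07 ± 8.67 points (SE, adjusted p = 0.818). Esrrg, a nuclear receptor of mitochondrial metabolism, had the highest mean of the list at 77.6, and Nfib a mean of 68.6. Between Case and Ctrl 2 of the 9 members were higher (median −9.42 points), against 41.6% of all regions. Between Dapa and Case 8 of 9 were higher (median 10.1), against 49.9% of all regions. Without Case 3 and Dapa 8 these were 2 of 9 (median −4.47) and 7 of 9 (median 10.6), and ranked among the 7865 regions only 3 of 9 and 6 of 9. These directions were not tested as a set, and the members are not replicates of each other.

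Of the 4 members in transport genes of the tubule, those in Slc4a4 and Slc22a8 ranked above every member of the transcription factor list on average. Slc4a4, the basolateral sodium bicarbonate cotransporter of the proximal tubule (mean 85.1), ranked at 92.2, 89.4, 95.2, 87.4 and 84.1 in Ctrl, from 59.5 to 94.3 (median 81.7) in Case and from 75.2 to 95.4 (median 89.9) in Dapa (intron 1 of 25, chr5:88929551-88930214). Slc22a8, an organic anion transporter, and Slc13a3, a dicarboxylate transporter, had means of 81.9 and 72.0. Their differences between Case and Ctrl were −9.76 ± 5.95, −3.28 ± 5.67 and −5.01 ± 9.03 points (SE), with adjusted p from 0.527 to 0.866. Slc12a3, the thiazide-sensitive cotransporter of the distal convoluted tubule, had a mean of 63.4 and a difference of −12.3 ± 8.35 points (SE, adjusted p = 0.565).

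Members of the other lists did not pass the threshold either. In the podocyte list, Actn4, an actin cross-linker, and Dach1, a transcriptional cofactor, had means of 72.6 and 45.2. In the endothelial list, the member in Flt1, a receptor of vascular growth factors, lay on 23 telomeric hexamers with a mean of 99.5, and Nrp1, its coreceptor, had a mean of 75.5. Cx3cr1, the fractalkine receptor of monocytes and macrophages, was the leukocyte gene with a member. It ranked at 95.9, 74.3, 95.7, 85.3 and 86.3 in Ctrl, from 71.5 to 94.8 (median 86.9) in Case and from 44.5 to 92.8 (median 81.5) in Dapa, with overlap of all groups. Insr, the insulin receptor, had a mean of 83.8, and the clock genes Cry2, Arntl and Nr1d1 had means of 80.9, 78.6 and 77.8. Among injury genes, Cd44, a hyaluronan receptor, had a mean of 94.6, Smad7, an inhibitor of TGF-beta signalling, 77.9, and Krt8, an epithelial keratin, 73.0. Their mean ranks were higher in Case than in Ctrl, with differences of 4.64 ± 2.04, 1.91 ± 6.20 and 14.9 ± 7.37 points (SE) and adjusted p from 0.344 to 0.932.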

How the data were processed

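Accessibility was measured by ATAC-seq in whole kidneys of 17 male mice (5 Ctrl, 6 Case, 6 Dapa). Per the labels and the study's methods, the authors aligned reads to mm10 with Bowtie2 in the ENCODE pipeline, removed PCR duplicates and blacklisted regions, shifted reads by the transposase offset and called peaks with MACS2 in each library separately, without pooling. DiffBind and HOMER are also named in the submitters' processing notes. Tool versions and the handling of reads that match several places are not given in the sources used here. The deposited summit files hold a −log10 p-value or q-value per summit as the caller's score. Which of these it is was not stated, and ranks do not depend on it unless their order differs. The lists held 29702 to 56659 summits, and the score at the end of the 29702 used ranged from 2.01 to 5.53. Read depth is unknown, so no counting interval is given.

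Genes and transcription starts were taken from the GENCODE annotation of GRCm38 (55413 genes, 141730 transcripts), and the genome sequence from the same assembly. Groups were taken from the labels, in which nothing but mouse numbers separates replicates, and no 2 libraries were identical (0 of 136 pairs). Rank percentiles of the highest score per region were fitted with limma 3.58.1 (R 4.3.3, empirical Bayes with a trend on the mean) over all 17 libraries and all 7865 regions found in each, with Benjamini-Hochberg adjustment over these regions and a threshold of 0.05. Filtering on presence in all 17 libraries fixed the tested set. The fit was checked on simulated data. Those values had no upper limit and were shifted only in regions of middle rank, so the check does not cover members near the top of the list. Sequence was searched in 201-bp windows for 19 motifs, and with BLAST+ 2.17.0 for copies (at least 95% identity over 181 bp, at most 50 matches per chromosome), satellite and ribosomal DNA (at least 80% identity over 100 bp). Satellite meant similarity to chr9:3000001-3040000, and ribosomal DNA similarity to the Rn18s-rs5 gene with 5000 bp to each side. A region inside such a stretch matches itself. Tandem repeats needed a match of 80% at a period of at most 70 bp, and telomeric regions at least 10 hexamers. Tables and figures were made with Python 3.11.15, numpy 2.4.6, pandas 2.3.3, scipy 1.17.1 and matplotlib 3.10.9.

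The members and gene lists were chosen with earlier results of these data known. Named members were, per comparison and direction, up to 10 past the threshold, or the first 3 by p where fewer than 3 passed. Also named were the 10 highest means, the 3 largest and 3 smallest standard deviations (Chl1, Filip1l and Cdk8 for the latter), the 5 genes with the most members, and up to 4 members per gene list. Of these, 1 of the genes with the most members is not reported here. The alternatives were another rank scale, ranking among the 7865 regions, shorter (14851 summits) and full lists, other extensions, distances and exon rules, autosomes only, fits of 2 groups, an exact permutation test, a replicate block, and libraries left out. A pair of alternatives was chosen after seeing the data, namely regions with no repeat or copy only, and leaving out Case 3 and Dapa 8.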

Additional observations from a re-analysis of the deposited data

Results flagged for a closer look

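In each group of 5 or 6 libraries, the lowest or highest value was compared with the others, and 11 of 45 such checks stood out, where chance gives about 1 in 20. The median rank percentile of the members was 63.2 in Case 3, against 78.4 to 82.1 in the other Case libraries, and 73.3 in Dapa 8, against 80.1 to 81.6 in the other Dapa libraries. The share of members below percentile 50 was 30.1% in Case 3, against 7.49% to 14.3% in the rest of its group, and the share in the highest decile was 15.1% in Dapa 8, against 24.7% to 29.0%. As given with the results, Case 3 and Dapa 8 also had the most leukocyte and the fewest proximal tubule promoters with a summit.

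Among the members past the threshold, single libraries were apart from their group. Gm3005 ranked at 78.9 in Dapa 12, against 91.7 to 96.9 in the other Dapa libraries. Dock2 ranked at 32.3 in Dapa 10, against 74.1 to 94.1. Oxgr1 ranked at 93.1 in Dapa 8, against 98.0 to 98.3. In Case, Snx29 ranked at 93.3 in Case 2, against 96.6 to 98.2, Rps6kc1 at 83.9 in Case 5, against 97.4 to 99.4, and Intu at 74.4 in Case 6, against 86.7 to 92.9. Nemp1 ranked at 93.2 in Ctrl 4, against 78.3 to 82.4 in the other Ctrl libraries. The causes were not tested.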

How the results depend on the processing

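The number of members was 238 with shorter lists, and 557 to 823 under the other definitions. Members past the threshold between Case and Ctrl numbered 10 in the reported fit, 41 on a logit scale (37 higher, 4 lower), 21 ranked among the 7865 regions only (20 higher, 1 lower), 5 with every summit, 0 with only the 2 groups in the fit, 0 with the exact permutation test (smallest adjusted p = 0.181), 1 without Case 2, Case 3 and Dapa 8, and 6 to 25 with 1 library left out. Between Dapa and Ctrl they numbered 7 in the reported fit, 13 on a logit scale (11 higher, 2 lower), 2 with every summit, 1 with only the 2 groups, 0 with the exact permutation test (smallest adjusted p = 0.196), 4 without Case 2, Case 3 and Dapa 8, and 1 to 21 with 1 library left out. At these group sizes the permutation test passes the adjustment only if many regions reach its smallest possible p together. It therefore says little of the stability of single members. In the alternatives chosen after seeing the data, regions with no repeat or copy gave 0 in both comparisons, and leaving out Case 3 and Dapa 8 gave 6 between Case and Ctrl and 5 between Dapa and Ctrl. Dapa against Case gave 0 in every setting run. Shares of all regions past the threshold are given only for the reported fit, so the other counts do not set the members apart from the rest. The median over the 17 library medians moved from 79.9 to 39.0 when members were ranked among the 7865 regions only, which changes the reference list. Each named member was refitted in each setting, and of these pairs of a member and a setting, 267 kept their side of the threshold between Case and Ctrl, 159 between Dapa and Case and 158 between Dapa and Ctrl. A further 88, 0 and 86 pairs lost it and 7 pairs between Case and Ctrl gained it, and none turned direction. The causes of these changes were not tested.

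With mouse number as a replicate block (Ctrl 1 to 5 with Case 1 to 5), 0 members passed. Deviations of equally numbered mice correlated at −0.061 to 0.036, and 1 of 5 Ctrl mice matched its own number best. The labels do not say whether equally numbered mice shared a litter or a day, and these correlations cannot settle it.

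Read depth is unknown. The precision of ranks is limited by tied scores (up to 12.7% of a list) and by a score at the end of the lists used that differed between libraries (2.01 to 5.53).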
